A study of Mus musculus with 9 samples.

Results

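Keap1, Icam1, Smarca4, Dnmt1, Carm1, Cdkn2d, Prkcsh and Cnn1 lie within 20 to 23 Mb of mouse chromosome 9 (GRCm38), in a run of genes with a high level in 1 of 9 breast tumours. They are 8 of the 49585 genes in the count table, taken by matching Ensembl identifiers to these symbols, and all 8 passed the filter on low counts that left 19606 genes tested. The genes were chosen by their measured level in AAV-delta-mut-p53 4, so their values in that tumour are a description and carry no test. Total RNA was measured in 6 tumours labelled AAV-delta-mut-p53 and 3 labelled AAV-Control. These were spontaneous adenocarcinomas of the breast, each a whole tumour collected when the mouse met the criteria for euthanasia. Adeno-associated virus (AAV) was given on days 0, 3 and 8 in both groups, and that of the AAV-delta-mut-p53 group was meant to delete mutant p53. All 9 tumours, controls included, have the same alleles in their labels. These were K14-Cre, which drives recombination in keratin 14-expressing epithelium, Trp53wm-R172H/fl, with 1 mutant and 1 floxed p53 allele, and Rosa26LSL CAS9-P2A-EGFP/+, a Cas9 and EGFP cassette. The labels do not spell out "wm" and give no age or batch.

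The genes do varied work, and some of them act on chromatin or DNA methylation. KEAP1 is the substrate adaptor with which the CUL3 ubiquitin ligase has the transcription factor NRF2 degraded, and when oxidants or electrophiles modify it, NRF2 accumulates and antioxidant genes are transcribed. ICAM1 is a surface ligand for the leukocyte integrin LFA-1 and is induced by NF-kB and interferon. SMARCA4 (BRG1) is an ATPase of the BAF chromatin remodelling complexes, DNMT1 copies DNA methylation onto newly replicated strands, and CARM1 methylates arginines of histones and coactivators. Cdkn2d encodes an INK4 inhibitor of the cyclin D kinases, Prkcsh the beta subunit of glucosidase II, which trims N-glycans in the endoplasmic reticulum, and Cnn1 the actin-binding protein calponin of smooth muscle and myoepithelium.

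The promoters of 3 of these genes are shown because their levels are set beside those of NRF2, NF-kB, interferon and smooth muscle genes further on. Each is the 250 bases before a transcription start from RefSeq (GRCm38.p6), which gave such a window for 7 of the 8 genes, printed 5′ to 3′ on the strand of the gene. The windows are chr9:21015690-21015939 (plus strand) for Icam1, chr9:21239333-21239582 (minus strand) for Keap1 and chr9:22099003-22099252 (plus strand) for Cnn1. Capitals mark the motifs found.
Icam1: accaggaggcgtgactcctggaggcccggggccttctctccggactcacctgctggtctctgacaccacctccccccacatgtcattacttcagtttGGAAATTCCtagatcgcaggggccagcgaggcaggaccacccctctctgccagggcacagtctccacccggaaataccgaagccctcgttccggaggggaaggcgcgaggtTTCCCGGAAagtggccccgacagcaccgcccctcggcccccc
Keap1: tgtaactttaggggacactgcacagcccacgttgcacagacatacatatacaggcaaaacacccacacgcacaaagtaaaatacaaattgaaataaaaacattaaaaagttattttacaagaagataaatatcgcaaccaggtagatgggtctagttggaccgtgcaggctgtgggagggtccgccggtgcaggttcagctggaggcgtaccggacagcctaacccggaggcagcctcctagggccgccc
Cnn1: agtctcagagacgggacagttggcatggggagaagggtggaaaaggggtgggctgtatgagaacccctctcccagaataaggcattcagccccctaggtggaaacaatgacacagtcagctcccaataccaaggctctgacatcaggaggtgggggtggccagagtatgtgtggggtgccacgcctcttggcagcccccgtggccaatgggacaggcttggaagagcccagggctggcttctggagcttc
The Icam1 window held a kappaB sequence, GGAAATTCC, starting 153 bases before the start, and a gamma-activated site, TTCNNNGAA, starting 42 bases before it. On both strands of the same windows of 27018 genes, the first sequence, which was chosen after the Icam1 window had been read, was in 0.344% and the second in 8.13%. Icam1 was the only one of the 7 genes with either. The antioxidant response element core TGACNNNGC was in 11.5% of all windows and the CArG box in 1.62%, and neither was in a window of the 7 genes. The Cnn1 window held 3 CpG and the Keap1 window 10, while the Icam1 window held 15, Cdkn2d 16, Prkcsh 24 and Smarca4 25, against a median of 6 over all genes. Dnmt1 has 3 windows in RefSeq, with 2, 7 and 26 CpG. A match or its absence describes these letters only.

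Libraries held 18581545 to 30953250 counts, and AAV-delta-mut-p53 4 was the shallowest. Values are in CPM, the count of a gene as a share of its library, scaled between libraries. A level of 1 gene in 1 tumour rested on 62 to 13657 counts for the 8 genes. Trp53 itself held 13.1, 22.0, 39.0, 37.8, 40.9 and 41.5 CPM in AAV-delta-mut-p53 tumours 1 to 6 and 48.6, 39.3 and 42.3 CPM in AAV-Control tumours 1 to 3, and gene counts do not measure the edit. AAV-delta-mut-p53 2 stood apart, with 36820 CPM summed over 6 skeletal muscle genes, against 24.5 to 347 CPM in the other 8 tumours. Its 7 mammary and basal epithelial markers summed to 220 CPM, against 1514 to 5105 CPM in the others. AAV-delta-mut-p53 4 and 5 share a number in their titles, and the labels do not say whether they come from 1 mouse. Nothing else ties or separates the animals, so p-values measure the spread between these samples. In whole tumours, more cells of a type and more RNA per cell cannot be told apart.

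All 8 genes had their highest level in AAV-delta-mut-p53 4, from 2.43 times the median of the other 8 tumours for Carm1 to 39.6 times for Cnn1. A gene is called raised in a tumour when its log2 CPM is at least 1 over the median of the other 8 and above all of them. By that measure 8 of 8 genes were raised in AAV-delta-mut-p53 4, where 5.45% of all tested genes were, and the choice of the genes used this value. Their median log2 difference was 1.95 there and -0.002 over all tested genes. In the other 8 tumours the median difference of the 8 genes lay between -0.73 in AAV-delta-mut-p53 2 and 0.27 in AAV-delta-mut-p53 3.

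**Figure D1:**
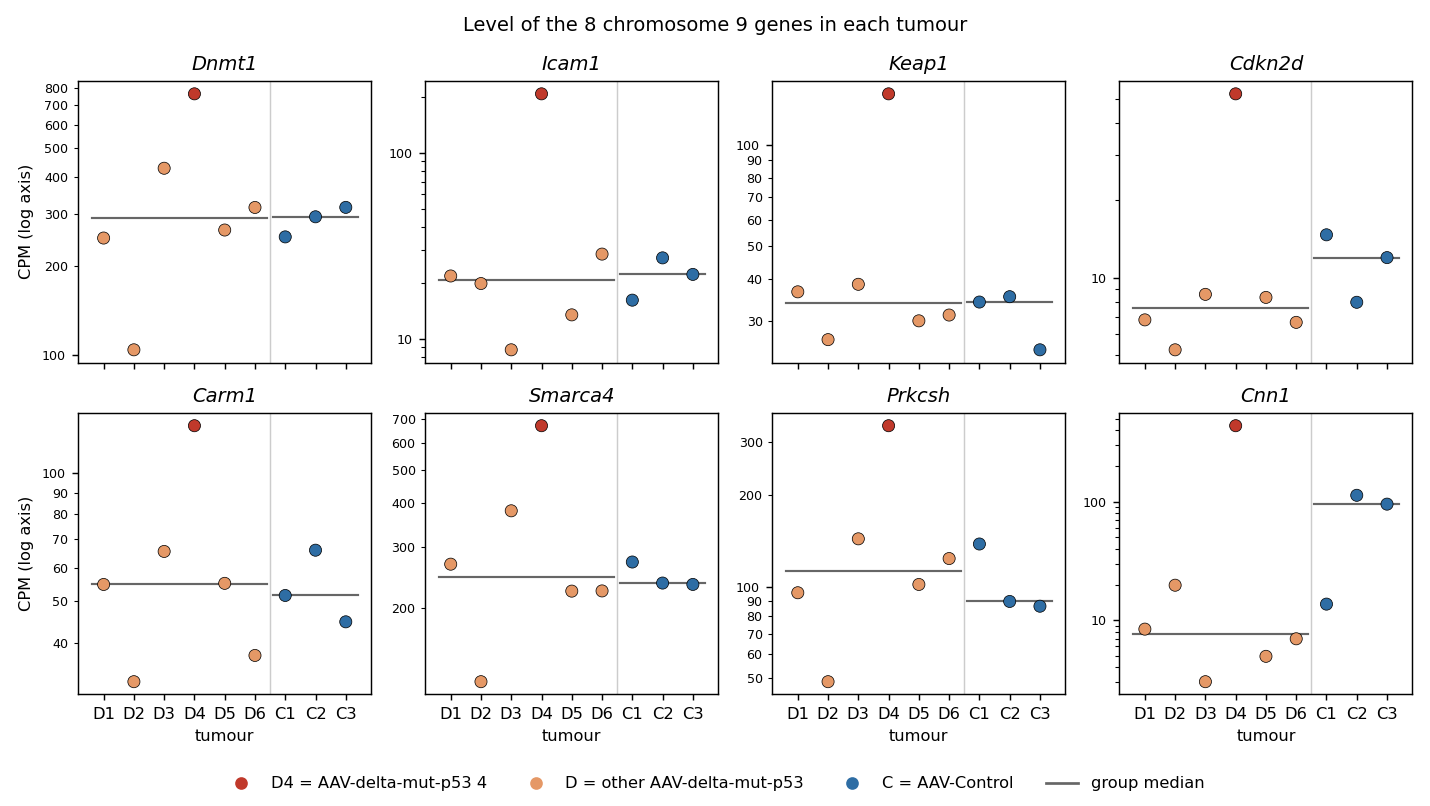
Level of each of the 8 genes (CPM, log axis) in the 9 tumours, 1 point per tumour, with AAV-delta-mut-p53 tumours (D1 to D6) left of AAV-Control tumours (C1 to C3). D4 is the highest point in all 8 panels, and Cnn1 shows the widest spread among the other 8 tumours.

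Keap1 (ENSMUSG00000003308.15, chr9:21229730-21239361, minus strand) held 36.6, 26.3, 38.5, 142, 30.0 and 31.2 CPM in AAV-delta-mut-p53 tumours 1 to 6, against 34.1, 35.4 and 24.6 CPM in AAV-Control tumours 1 to 3. The groups overlapped, and AAV-delta-mut-p53 4 alone stood apart. It was the steadiest of the 8 genes elsewhere, with a 1.57-fold range over the other 8 tumours, and its level in AAV-delta-mut-p53 4 was 3.69 times the highest of them. An antisense gene, Gm16754, overlaps Keap1 and held 12.4 CPM in AAV-delta-mut-p53 4 and at most 4.0 CPM in the others. The kit keeps the strand, but the sources used here do not give the strand setting of the counting.

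Icam1 (ENSMUSG00000037405.8, chr9:21015985-21028817, plus strand) held 21.7, 19.8, 8.69, 208, 13.4 and 28.5 CPM in AAV-delta-mut-p53 tumours 1 to 6, against 16.1, 27.2 and 22.1 CPM in AAV-Control tumours 1 to 3. AAV-delta-mut-p53 4 was 7.29 times the next tumour, and AAV-delta-mut-p53 3 was the lowest of all 9. The 3 AAV-Control tumours lay within the range of the other AAV-delta-mut-p53 tumours.

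The genes of chromatin, DNA methylation and arginine methylation had the smallest relative gap between AAV-delta-mut-p53 4 and the next tumour. Smarca4 (ENSMUSG00000032187.16, chr9:21616169-21704230, plus strand) held 267, 122, 381, 671, 223 and 224 CPM in AAV-delta-mut-p53 tumours 1 to 6, against 271, 236 and 233 CPM in AAV-Control tumours 1 to 3. Dnmt1 (ENSMUSG00000004099.16, chr9:20907209-20959888, minus strand) held 248, 104, 427, 762, 264 and 315 CPM in AAV-delta-mut-p53 tumours 1 to 6, against 250.2, 293 and 315 CPM in AAV-Control tumours 1 to 3. In both genes AAV-delta-mut-p53 4 was the highest, AAV-delta-mut-p53 3 the next and AAV-delta-mut-p53 2, the tumour with little epithelial RNA, the lowest. Carm1 (ENSMUSG00000032185.15, chr9:21546894-21592623, plus strand) held 54.8, 32.4, 65.5, 129, 55.1 and 37.4 CPM in AAV-delta-mut-p53 tumours 1 to 6, against 51.6, 65.9 and 44.8 CPM in AAV-Control tumours 1 to 3. Its gap to the next tumour, 1.96-fold, was close to those of Dnmt1 (1.79-fold) and Smarca4 (1.76-fold). Carm1 overlaps Yipf2 on the other strand, which held 113 CPM in AAV-delta-mut-p53 4.

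Cdkn2d (ENSMUSG00000096472.2, chr9:21288410-21291407, minus strand) held 6.83, 5.22, 8.60, 52.2, 8.36 and 6.68 CPM in AAV-delta-mut-p53 tumours 1 to 6, against 14.7, 8.00 and 12 CPM in AAV-Control tumours 1 to 3. AAV-delta-mut-p53 4 was 3.55 times the next tumour, which was AAV-Control 1. Prkcsh (ENSMUSG00000003402.14, chr9:22002806-22014222, plus strand) held 95.6, 48.7, 144, 339, 102 and 124 CPM in AAV-delta-mut-p53 tumours 1 to 6, against 138, 89.5 and 86.4 CPM in AAV-Control tumours 1 to 3. The groups overlapped in both genes.

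Cnn1 (ENSMUSG00000001349.5, chr9:22099216-22109630, plus strand) held 8.41, 19.7, 3.03, 437, 4.96 and 6.97 CPM in AAV-delta-mut-p53 tumours 1 to 6, against 13.7, 113 and 95.3 CPM in AAV-Control tumours 1 to 3. It varied 37.4-fold over the 8 tumours other than AAV-delta-mut-p53 4, where the other 7 genes varied 1.57-fold to 4.11-fold. AAV-Control 2 and 3 were the next highest after AAV-delta-mut-p53 4, and AAV-delta-mut-p53 3 the lowest.

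Most neighbours of the 8 genes were also raised in AAV-delta-mut-p53 4. Between 20 and 23 Mb, 54 protein-coding genes had a mean of at least 5 CPM, of which 46 are not among the 8. Of those 46, 38 (82.6%) were raised in AAV-delta-mut-p53 4, against 4.36% of the 11713 protein-coding genes at that level across the genome, and their median log2 difference was 1.87. The 8 genes were picked from a run already seen to be raised in that tumour, so this share is a description. Yipf2, at 2.84, was the highest, with 113 CPM in AAV-delta-mut-p53 4, against a median of 15.7 CPM in the other 8. Swsap1 (2.54), Ppan (2.36), Tmem205 (2.31) and Mrpl4 (2.31), which encodes a mitochondrial ribosomal protein, came next. Col5a3, a fibrillar collagen gene, was the only one of the 46 below 0, at -1.59, with 12.2 CPM in AAV-delta-mut-p53 4, against a median of 37.3 CPM in the others. All 6 fibroblast and pericyte markers were below their median in AAV-delta-mut-p53 4 (median difference -0.91), as were all 5 endothelial markers (-1.12), whose sum of 108 CPM was the lowest of the 9. Their part in the Col5a3 level was not tested. Just inside the threshold of 1 lay Zfp266 at 1.12, and just outside it lay Kank2 at 0.94 and Rab3d at 0.88.

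The run reached well past these genes. It was traced as the unbroken stretch around the 8 genes with a moving median of at least 1, over 11 protein-coding genes, for 667 genes of chromosome 9, and held 135 genes from Alkbh8, the first gene profiled, to Hyls1 (chr9:3335140-35570398). Of these, 100 (74.1%) were raised in AAV-delta-mut-p53 4, against 23 of the 532 other genes of the chromosome (4.32%). The run was traced on that same difference, so its share had to be high and is a description. The share raised was 81.8% at 20 to 30 Mb, 40% at 30 to 40 Mb, 31.1% at 40 to 50 Mb and 0.875% of the 457 genes past 50 Mb. The median difference of the 135 genes was 1.74 in AAV-delta-mut-p53 4 and between -0.42 and 0.27 in the other 8 tumours. Elsewhere on the chromosome the moving median also reached 1 in AAV-delta-mut-p53 2 (highest 1.64), 3 (1.33) and 6 (1.18), at 0 genes of the run. A separate stretch of 18 genes at 44.1 to 44.7 Mb also had a moving median of at least 1. Over a moving median of 5 genes the run held 36 genes and ended at 21.8 Mb, and with genes from a mean of 1 CPM it held 103 and ended at 21.9 Mb. Prkcsh and Cnn1 lay outside it in both, with the other 6 genes inside. Chromosomes 7 and 4 also had many raised genes in that tumour, 13.2% and 11.7% of those profiled, while 18.4% were raised on chromosome 9. DNA was not measured, and the number of gene copies was not tested.

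**Figure D2:**
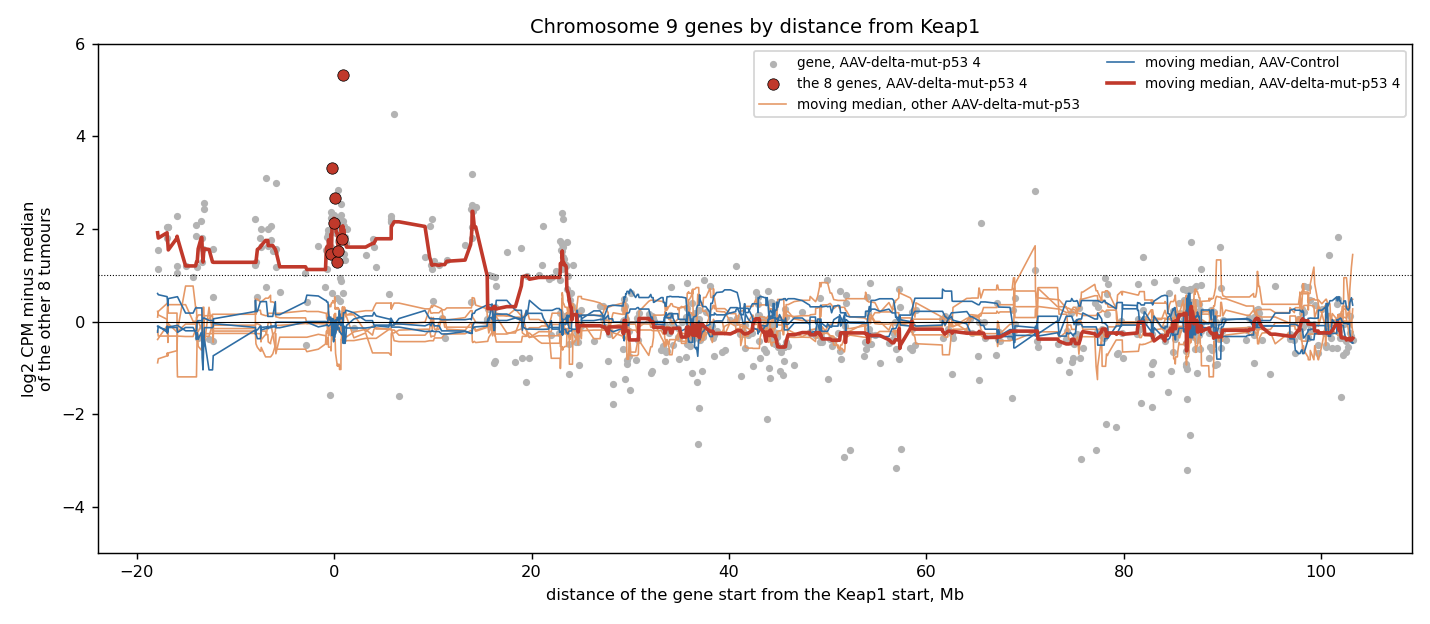
Log2 CPM in AAV-delta-mut-p53 4 minus the median of the other 8 tumours for the 667 profiled genes of chromosome 9, by distance of the gene start from that of Keap1 (Mb), with the 8 genes in red and the moving median over 11 genes as a red line. Thin orange and blue lines are the moving medians of the other AAV-delta-mut-p53 tumours and the AAV-Control tumours, each against its own other 8. The red line stays above 1 over the run of 135 genes, and past it only over the 18 genes at 44.1 to 44.7 Mb. The orange lines of D2, D3 and D6 pass 1 outside the run.

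Deleting mutant p53 is the contrast of the study, and between its groups 0 of the 8 genes passed a false discovery rate (FDR) of 0.05 in edgeR's quasi-likelihood test, as did 0 of 19606 genes (0%). At an unadjusted p under 0.05, edgeR had 1387 genes (7.07%) and none of the 8. DESeq2 called 104 of the 18806 genes it gave an FDR (0.553%), none of them among the 8. It gave no p for Icam1, Cdkn2d and Cnn1, which therefore could not be called. Keap1 averaged 50.8 ± 45 CPM in AAV-delta-mut-p53 tumours (SD, n = 6) and 31.3 ± 5.90 CPM in AAV-Control tumours (SD, n = 3). Its log2 fold change was 0.70 (SE 0.56, edgeR FDR 0.758). Icam1 averaged 49.97 ± 77.6 CPM in AAV-delta-mut-p53 tumours (SD, n = 6) and 21.8 ± 5.55 CPM in AAV-Control tumours (SD, n = 3). The log2 fold change of Icam1 was 1.2 (SE 0.97, edgeR FDR 0.758). The other 6 genes had log2 fold changes of 0.11 to 0.44, with FDRs of 0.838 to 0.988.

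Without AAV-delta-mut-p53 4, 7 of the 8 log2 fold changes were below 0. Their median was -0.10 over the 8 genes, against 0.09 over all tested genes. Keap1 averaged 32.5 ± 4.96 CPM in the 5 remaining AAV-delta-mut-p53 tumours and 31.3 ± 5.90 CPM in AAV-Control tumours, a log2 fold change of 0.06 (SE 0.28, edgeR FDR 0.962). Icam1 had a log2 fold change of -0.24, Dnmt1 of -0.066, Carm1 of -0.13, Smarca4 of -0.011 and Prkcsh of -0.021. Each of these was smaller in size than its SE, which ran from 0.31 for Carm1 to 0.42 for Icam1. Cdkn2d averaged 7.14 ± 1.38 CPM in the 5 AAV-delta-mut-p53 tumours and 11.6 ± 3.36 CPM in AAV-Control tumours (log2 fold change -0.68, edgeR FDR 0.672). Cnn1 averaged 8.62 ± 6.54 CPM in the 5 AAV-delta-mut-p53 tumours and 74.0 ± 53 CPM in AAV-Control tumours. Its log2 fold change was -3.08 (SE 0.73), with an unadjusted edgeR p of 0.00195 and an FDR of 0.672, and the groups overlapped, since AAV-delta-mut-p53 2 lay above AAV-Control 1. An unadjusted p under 0.05 was reached by 7.05% of genes in that comparison. Of the 83 tested genes at 20 to 23 Mb, 73 had a log2 fold change above 0, while after AAV-delta-mut-p53 4 was left out this held for 39 of the 80 tested.

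**Figure D3:**
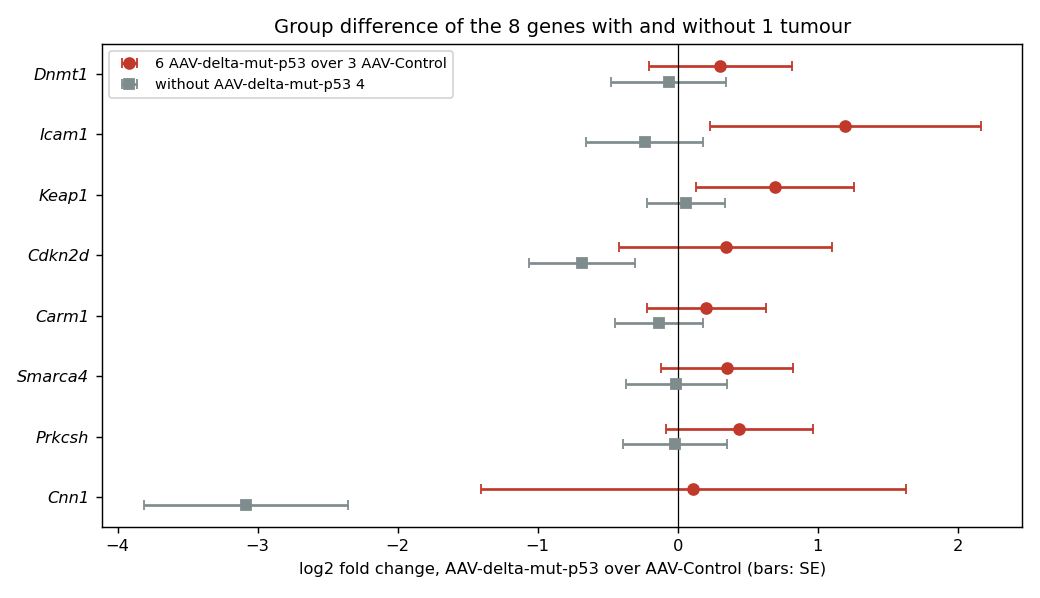
Log2 fold change of AAV-delta-mut-p53 over AAV-Control for the 8 genes with SE bars, once for the full set of 9 tumours and once with AAV-delta-mut-p53 4 left out. All 8 lie above 0 with the 9 tumours, and Keap1 alone does without AAV-delta-mut-p53 4, while Cnn1 moves to -3.08.

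The genes whose log2 CPM over the 9 tumours was most like that of each of the 8 were mostly on the same chromosome. Of 40 such genes, 5 for each, 25 were on chromosome 9 and 23 in the run, out of 12316 compared. Pearson's r is given over 9 tumours that include AAV-delta-mut-p53 4, and as a description. Keap1 was most like Ecsit (r = 0.972), a gene of the same run, and without AAV-delta-mut-p53 4 that r was 0.605. Smarca4 was most like Cdc37, an HSP90 cochaperone gene (0.980, and 0.952 without that tumour), Carm1 like Yap1, the Hippo pathway coactivator gene (0.981 and 0.950), and Prkcsh like Tmed1 (0.980 and 0.953). Dnmt1 was most like Eef1a1 (0.971 and 0.960), Cdkn2d like Exosc3 on chromosome 4 (0.972 and 0.854) and Icam1 like Bbs9 (0.961 and 0.755). Icam1 had 1 of its 5 on chromosome 9, while Atp6v1g1, Clta, Dcaf12 and Chmp5 lie on chromosome 4. Cnn1 had none of its 5 on chromosome 9, and was most like Ndufa1 on the X chromosome (0.962, and 0.963 without AAV-delta-mut-p53 4).

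Genes that work with the 8 were taken from lists, and 0 of their genes passed FDR 0.05 between the groups in edgeR's test. Of 26 NRF2 targets, 15 had a higher and 11 a lower mean level by log2 fold change (median 0.16, against 0.09 over all genes), and 1 had an unadjusted p under 0.05. That was Gclm, a glutathione synthesis gene, with 65.1, 28.7, 53.4, 74.6, 65.9 and 58.8 CPM in AAV-delta-mut-p53 tumours 1 to 6, against 138, 88.4 and 111 CPM in AAV-Control tumours 1 to 3. Its edgeR FDR was 0.677. Gclm had the smallest unadjusted edgeR p of the 26 targets, and 7.07% of all tested genes had one under 0.05. In AAV-delta-mut-p53 4, where Keap1 was highest, the 26 targets had a median difference of -0.24 and 2 (7.69%) were raised, Aldh3a1 and Txn1, near the 5.45% of all tested genes. Txn1, the thioredoxin gene, lies on chromosome 4 and held 279 CPM there, against a median of 89.4 CPM in the others. Nfe2l2, which encodes NRF2, held 122 CPM in AAV-delta-mut-p53 4, against a median of 102 CPM, and Cul3 held 211 CPM, against a median of 227 CPM. Of the 13 KEAP1 partners and regulators 0 were raised in that tumour, and at 5.45% of all genes a list of this size need hold none.

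Lists as short as those of the partners of the other genes hold few raised genes or none at a share of 5.45%, so their counts are given as a description. Of 23 BAF and PBAF subunits other than Smarca4, 0 were raised, with a median difference of -0.20. Smarca2, the other ATPase of these complexes, held 78.0 CPM there, against a median of 137 CPM in the other 8, and had a log2 fold change of -0.91 between the groups (edgeR FDR 0.677). Of 12 DNA methylation genes 0 were raised, and Dnmt3a, a de novo methyltransferase gene, held 54.9 CPM there, against a median of 93.0 CPM. Of 7 other arginine methyltransferases tested 1 was raised, Prmt7, at 56.1 CPM against a median of 23.2 CPM. Of 13 CDK inhibitor and G1 genes 0 were raised. Of 12 N-glycan folding genes 1 was, Mogs, which encodes glucosidase I, while Ganab, the catalytic partner of the Prkcsh product, held 150 CPM, against a median of 210 CPM.

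**Figure D4:**
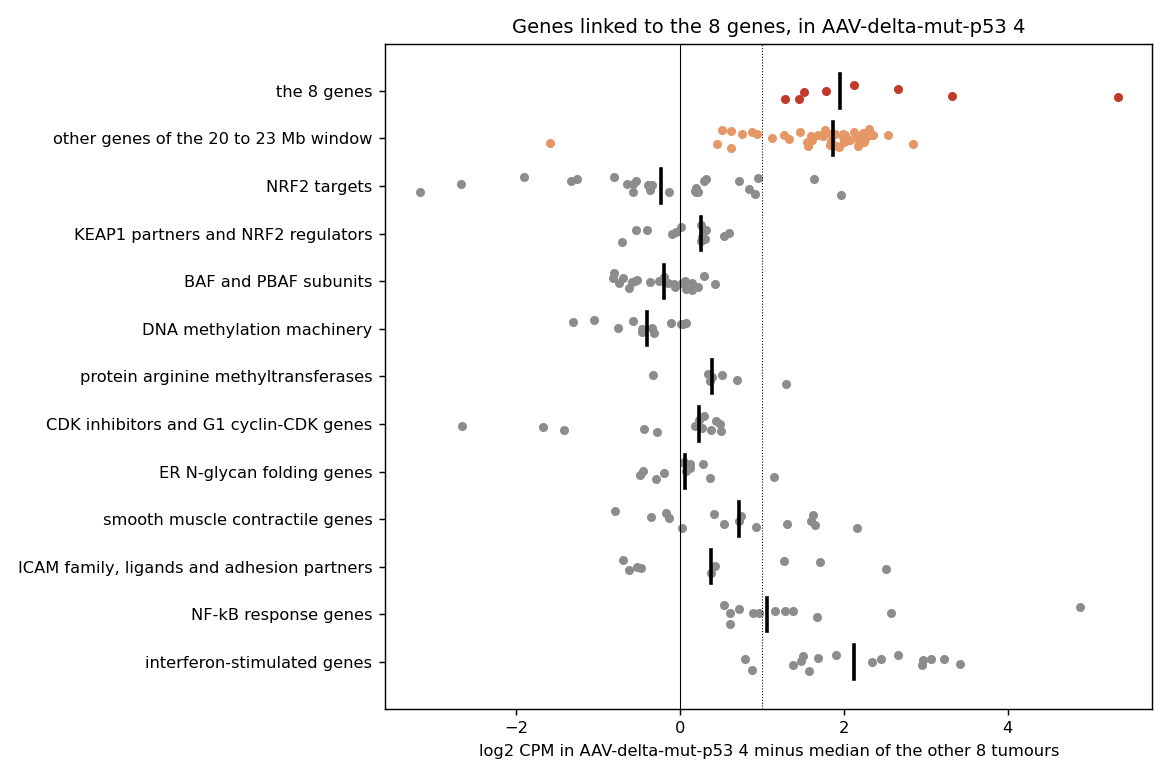
Log2 CPM in AAV-delta-mut-p53 4 minus the median of the other 8 tumours, 1 point per gene with list medians as bars, for the 8 genes, their neighbours at 20 to 23 Mb and the lists linked to them. The 8 genes lie between 1.28 and 5.34, the BAF and PBAF subunits between -0.82 and 0.42 and the DNA methylation genes between -1.31 and 0.07.

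The NF-kB response genes, a class to which Icam1 belongs, also had their highest sum in AAV-delta-mut-p53 4. The 12 NF-kB response genes summed to 534 CPM there, against 200.5 to 436 CPM in the other 8. Of them 3 (25%) were raised, of which Birc3 lies in the run on chromosome 9, against 5.45% of all tested genes. Of the 16 interferon-stimulated genes 3 (18.8%) were raised there, with a median difference of 2.12, against 1.06 for the NF-kB genes. The 16 interferon-stimulated genes summed to 151, 1090.0, 1451, 1351, 157 and 1307 CPM in AAV-delta-mut-p53 tumours 1 to 6, against 340.2, 214 and 226 CPM in AAV-Control tumours 1 to 3. Tumours 2, 3, 4 and 6 of the AAV-delta-mut-p53 group lay above all 3 controls, and 1 and 5 lay below them. AAV-delta-mut-p53 3, with the highest interferon sum, had the lowest Icam1 level of the 9, and AAV-delta-mut-p53 6, with 1307 CPM, the second highest. All 16 had log2 fold changes above 0 (median 2.14, against 0.09 over all genes), with 9 at an unadjusted edgeR p under 0.05, which 7.07% of all genes reached. Of 9 tested genes of the ICAM family, its ligands and adhesion partners, 2 (22.2%) were raised in AAV-delta-mut-p53 4, Itgal and Icam5. Icam5 lies at 20 to 23 Mb of chromosome 9. The median difference of the 9 was 0.38, and 5 lay above the median of the other 8 tumours. Itgal, a subunit of the ICAM1 receptor LFA-1, held 17.5 CPM in AAV-delta-mut-p53 4, against a median of 5.36 CPM. Itgb2, the other subunit of LFA-1, was not raised, at 28.6 CPM against a median of 21.3 CPM. The leukocyte markers summed to 244 CPM there and to 120 to 986 CPM in the other 8, and their part in the Icam1 level was not tested. The part of NF-kB or interferon in that level was not tested either.

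Cnn1 was set beside 15 other smooth muscle genes, which summed to 1413, 3224, 1032, 4207, 1597 and 2328 CPM in AAV-delta-mut-p53 tumours 1 to 6, against 2208, 5514 and 3971 CPM in AAV-Control tumours 1 to 3. AAV-delta-mut-p53 4 was second to AAV-Control 2. None of the 15 was raised there, where 5.45% of all tested genes were, and a gene higher in any other tumour does not count as raised. Of the 15, 11 lay above the median of the other 8 tumours, with differences of -0.80 to 2.15 over the list (median 0.72). Tagln, also a defining smooth muscle gene, held at most 1.5 CPM in any of the 9 tumours. The counting program was not given, so that low count does not show that Tagln was not expressed. Acta2, the smooth muscle actin gene, held 154, 485, 64.2, 2083, 451 and 346 CPM in AAV-delta-mut-p53 tumours 1 to 6, against 820, 2773 and 1386 CPM in AAV-Control tumours 1 to 3. Myh11, the smooth muscle myosin gene, held 20.5, 98.1, 8.21, 73.8, 17.2 and 9.74 CPM in AAV-delta-mut-p53 tumours 1 to 6, against 26.7, 311 and 375 CPM in AAV-Control tumours 1 to 3. As for Cnn1, AAV-delta-mut-p53 3 was the lowest in both, and AAV-Control 2 and 3 were high. Without AAV-delta-mut-p53 4 the log2 fold changes were -2.46 for Acta2 and -2.92 for Myh11, beside -3.08 for Cnn1, and none passed FDR 0.05 in edgeR's test. The list did not go 1 way, since 10 of the 15 were below 0 and 5 above it in that comparison, and 9 below and 6 above with the full set. Those above 0 were Myocd (4.24), Des (4.15), Synpo2 (1.91), Smtn (0.98) and Cald1 (0.48). Des held 447 CPM in AAV-delta-mut-p53 2, the tumour with the high skeletal muscle sum, and 2.66 to 19.0 CPM in the other 8. In the same tumour Synpo2 held 116 CPM, against 4.54 to 11.2 CPM in the other 8. Smtn held 261 CPM in AAV-delta-mut-p53 6 and 33.1 to 54.6 CPM in the other 8. Myocd was low throughout, with 14.1 CPM in AAV-delta-mut-p53 2, at most 7.72 CPM elsewhere and 0 to 0.734 CPM in AAV-Control tumours. The part of smooth muscle or myoepithelial cells in the Cnn1 level was not tested.

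**Figure D5:**
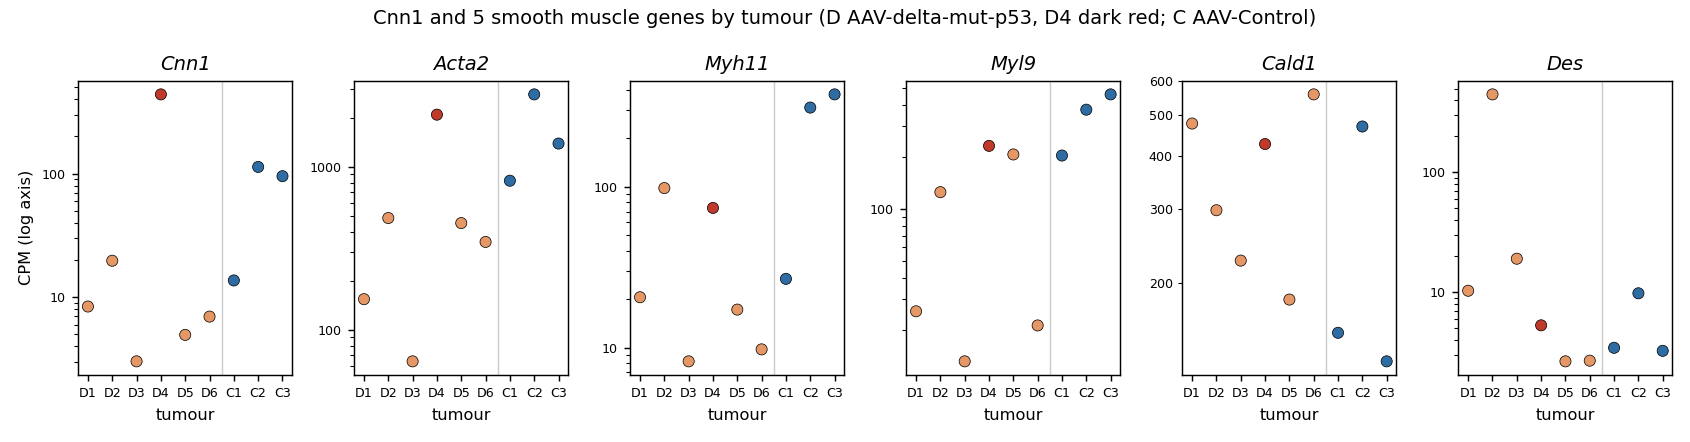
Level of Cnn1 and 5 smooth muscle genes (CPM, log axis) in each tumour, with AAV-delta-mut-p53 tumours left of AAV-Control tumours. Cnn1 is highest in D4 (437 CPM), while Acta2 and Myh11 are higher in an AAV-Control tumour than in D4.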

How the data were processed

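Per the labels' protocols, total RNA of frozen tumours went into stranded libraries. The authors deposited raw read counts per gene, 1 column per tumour, with no normalization. The submitters' processing notes name STAR 2.6.0b, DESeq2 and GRCm38 without saying what each was for. The counter, its strand setting and the annotation release were not given in the sources used here. Columns were tied to samples by title, and 0 columns were left over.

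Symbols and positions came from GENCODE mouse release M21 on GRCm38, matched for 49326 of 49585 identifiers with the version suffix removed. Totals ran from 18581545 to 30953250 counts per tumour. Genes kept by edgeR's filterByExpr (minimum count 10) were tested, 19606 in all. The quasi-likelihood test of edgeR 4.0.16 (R 4.3.3) was 2-sided, used TMM scaling and no covariate, and was adjusted by the Benjamini-Hochberg method at an FDR of 0.05. A positive log2 fold change means a higher level in AAV-delta-mut-p53 tumours, with standard errors (SE) derived from the same test. CPM carry TMM factors. Differences of 1 tumour from the median of the other 8 were taken on log2 CPM (prior count 2) and had no test. The test was also run on simulated counts with known changes, where it missed many of the changed genes. A lack of calls therefore does not show that levels are equal.

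The 8 genes and the 18 gene lists were chosen with earlier results of these data known. The named genes were the 8, the 5 genes most like each of them, the extremes of the window and, of each list, the 3 genes with the smallest p and the 2 with the highest mean CPM. The text gives a part of those. Genes raised in the 1 tumour, the list genes Dnmt3a, Nfe2l2, Ganab and Tagln, and the smooth muscle genes above 0 were added after their values were seen. Alternatives were DESeq2 1.42.0, limma 3.58.1 voom with sample quality weights, other scaling and filters, summing the 2 samples that share a number, leaving out each tumour, and other windows and thresholds for the run.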

Additional observations from a re-analysis of the deposited data

Results flagged for a closer look

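Within the 6 AAV-delta-mut-p53 tumours, AAV-delta-mut-p53 4 stood apart from the other 5 for 4 of the 8 genes on the log2 CPM scale. The measure was the gap to the nearest tumour divided by the range of the group, with a critical value of 0.625 for 6 samples. The quotient was 0.785 for Cdkn2d, 0.775 for Keap1, 0.627 for Icam1 and 0.626 for Cnn1. For Carm1, Prkcsh, Smarca4 and Dnmt1 it was 0.491, 0.442, 0.332 and 0.291, under the critical value. Chance places about 1 in 20 groups past that value, and the 8 genes were chosen for their level in AAV-delta-mut-p53 4, so these quotients are a description. AAV-delta-mut-p53 2, the lowest of the 6 for Dnmt1, had a quotient of 0.437 at the low end of that gene.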

How the results depend on the processing

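All 8 genes met the rule for a raised gene in AAV-delta-mut-p53 4 under each of the 13 alternatives run (other scaling, the mean in place of the median, a prior count of 0.5, a threshold of 0.58 and each of the other 8 tumours left out). The median difference of the 8 genes lay between 1.85 and 2.01 in them. The run held 135 genes, and 36 with a moving median over 5 genes in place of 11, where it spanned 20.3 to 21.8 Mb. With genes from a mean of 1 CPM it held 103 genes and ended at 21.9 Mb, in place of 35.6 Mb. Prkcsh and Cnn1 lay outside it in both. It held 132 to 137 genes under the other 3 alternatives, with all 8 genes inside. No gene passed FDR 0.05 in edgeR's test under any scaling, filter or left-out tumour, or in limma voom, while DESeq2 called 104 genes, none of the 8 among them. DESeq2 gave no p for Icam1, Cdkn2d and Cnn1. Leaving out 1 tumour gave log2 fold changes of -0.066 to 0.51 for Dnmt1, -0.24 to 1.42 for Icam1, 0.061 to 0.84 for Keap1, -0.68 to 0.55 for Cdkn2d, -0.13 to 0.38 for Carm1, -0.011 to 0.53 for Smarca4, -0.021 to 0.69 for Prkcsh and -3.08 to 0.59 for Cnn1, with 0 genes called each time.

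Direction changed without AAV-delta-mut-p53 4 for 7 of the 8 genes, Keap1 being the exception, and that tumour gave the low end of all 8 ranges. It also changed in limma voom with sample quality weights for Cdkn2d (-0.21) and Cnn1 (-1.03), with the 2 samples that share a number summed for Cdkn2d (-0.085) and Cnn1 (-0.69), and without AAV-Control 1 for Cnn1 (-0.39). The cause of the changes in voom was not tested. No paired analysis was possible because the labels give no replicate numbers, and those used here only name the tumours.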

Other observations

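Genes outside the run also had their highest level in AAV-delta-mut-p53 4. Cggbp1, on chromosome 16, was among the 5 genes most like Keap1 over the 9 tumours. It held 1810.1 CPM in AAV-delta-mut-p53 4 and 127 to 303 CPM in the other 8 tumours. Ccl20, which encodes a chemokine that draws lymphocytes and dendritic cells, held 8.99 CPM in that tumour, against a median of 0.229 CPM in the other 8. Relb, which encodes an NF-kB subunit, held 33.2 CPM there, against a median of 10.4 CPM. Of the chromosome 4 genes most like Icam1, Chmp5, an ESCRT-III component, held 236 CPM there, against a median of 67.3 CPM in the other 8. These genes were singled out after their values had been seen, and none passed edgeR's FDR threshold between the groups.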
